A study of Mus musculus with 20 samples.

Results

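The comparison described here set the spinal cords of vehicle-fed mice at 28 days post-injury (dpi) against those of vehicle-fed mice at 7 dpi, inside each cell cluster. The cells were chosen by library. All 7439 cells of the 7 dpi vehicle library and all 9846 cells of the 28 dpi vehicle library entered, together 17285 of the 21016 cells of the series. Both pools came from female C57BL/6J mice, 8 to 10 weeks old when bought, that ate control chow from 2 weeks before surgery to the end point. The same chow without drug was the control for PLX5622, an inhibitor of the Csf1 receptor that depletes microglia, so no cell of this comparison had seen the drug. Every mouse had received a contusion of the thoracic cord at T9. Per the study's methods, 3 to 4 cords were pooled per library, 1 cm of unperfused tissue with its meninges was dissociated, and myelin debris and dead cells were removed, a preparation that enriches for glia and immune cells. Each time was thus 1 pool and 1 library. There was no replicate to set a difference against, no test between mice was possible, and the intervals given below are 95% intervals of counting error only.

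After a contusion, resident microglia and macrophages that derive from blood monocytes (MDMs) accumulate in the lesion, take up myelin and dying cells, and store the lipid they have eaten. Freshly arrived monocyte-derived cells are known for wound-healing and clotting genes such as Arg1 and F13a1, and phagocytes that have handled lipid for longer are known for a set of genes around Apoe, Lpl, Cst7 and Itgax, often called disease-associated. Lymphocytes enter later, astrocytes form a border around the lesion, and endothelial and oligodendrocyte lineage cells take part in the repair of vessels and myelin.

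The authors' cluster numbers were kept and checked against 86 markers of 15 cell types. Of these markers, 82 were in the count table and 74 had their highest level in the cluster of their own name. The exceptions were Sall1, Arg1, Ly6c2, Mbp and 4 leptomeningeal markers. Cluster 13, which held few leptomeningeal markers at their highest level and led with Krtdap, Rspo3 and Slc47a1, was left without a cell type name. The monocyte cluster led with Retnla, Alox15 and Cd209a, genes also known from dendritic cells and resident macrophages. The oligodendrocyte lineage cluster led with Gpr17, Neu4 and Tnr, genes of precursors and of cells about to form myelin. The 7 dpi library was deeper per cell, with a median of 3983 UMIs (unique molecular identifiers, each standing for 1 captured transcript), against 2268.5 at 28 dpi. The libraries shared 21 cell barcodes, and no other pair of libraries in the series shared more than 5. These libraries also held the most cells, and the numbers of shared barcodes were not scaled to cell number. Clusters outside the myeloid lineage held RNA of phagocytes at both times. Of the endothelial cells, for example, 59.5% at 7 dpi and 51.7% at 28 dpi held 3 or more UMIs of 12 myeloid genes.

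The makeup of the 2 libraries differed. Of the 14 clusters, 7 took a larger share of the cells at 28 dpi and 7 a smaller share. Microglia were 29.0% (27.9 to 30.0) of the cells at 7 dpi and 40.4% (39.4 to 41.3) at 28 dpi, and MDMs were 40.6% (39.5 to 41.8) and 33.7% (32.7 to 34.6). Microglia outnumbered MDMs in the later library and not in the earlier one. In the sham vehicle library, microglia were 37.6% and MDMs 10.3% of the cells.

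Among the smaller clusters, the monocytes had the largest loss of share, from 8.09% (7.48 to 8.74) to 2.88% (2.56 to 3.23), a log2 ratio of -1.49 (-1.70 to -1.28). Oligodendrocyte lineage cells went from 1.44% to 0.559% (log2 ratio -1.37), erythroid cells from 0.780% to 0.356% (-1.13), proliferating cells from 4.13% to 2.52% (-0.71) and neutrophils from 3.00% to 1.92% (-0.64). In the other direction, astrocytes went from 0.928% (0.722 to 1.17) to 2.49% (2.19 to 2.82), a log2 ratio of 1.42 (1.03 to 1.83), and T cells from 2.06% to 3.55% (0.79). The sham library held 17.3% astrocytes and 3.73% T cells. B cells were 2.55% and 3.34% of the cells, against 1.28% in sham.

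Pericytes and fibroblasts went from 20 to 66 cells and cluster 13 from 9 to 64 cells, log2 ratios of 1.32 (0.58 to 2.12) and 2.43 (1.41 to 3.62). The shares of endothelial cells (4.72% and 4.27%) and of ependymal cells (2.33% and 2.79%) did not differ beyond counting error, with log2 ratios of -0.15 (-0.35 to 0.06) and 0.26 (-0.02 to 0.55). A share depends on how many cells of all other types survived dissociation and filtering. Among cells outside microglia and MDMs, endothelial cells were 15.5% and 16.4%, within counting error, and ependymal cells 7.65% and 10.8%, a log2 ratio of 0.49 (0.21 to 0.77). The ependymal interval was also above 0 in cells with at least 500 genes (0.061 to 0.64) and without doublets (0.0024 to 0.61). In cells with at least 500 genes, the log2 ratio of the B cell share was 0.04 (-0.27 to 0.37) and that of the neutrophil share -0.22 (-0.65 to 0.20). Both differences in share were therefore within counting error once shallow cells were left out.

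**Figure D1:**
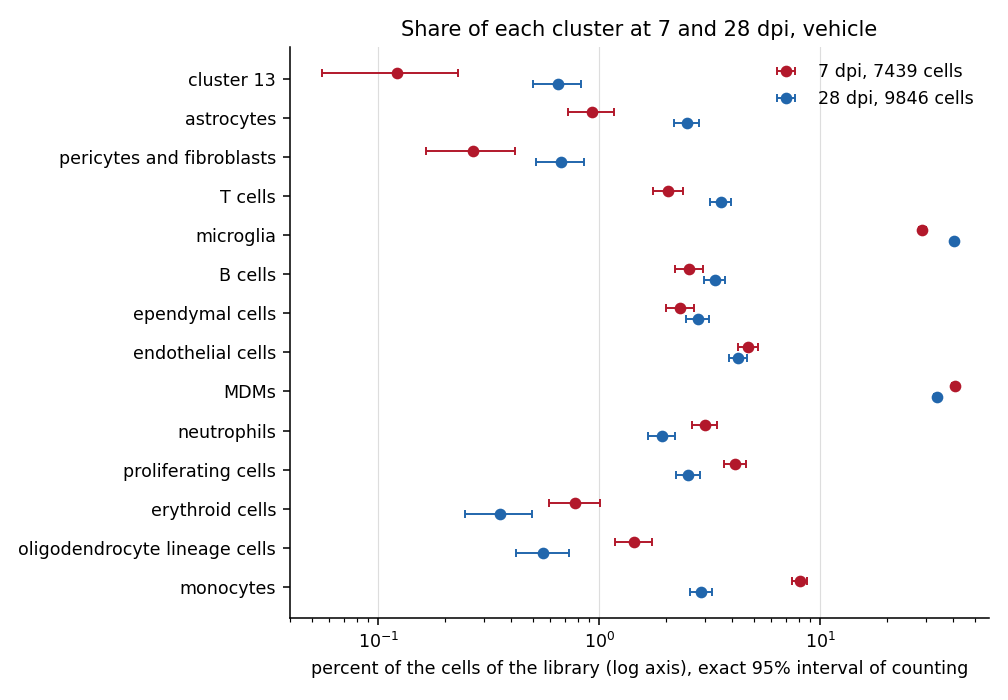
Share of each cluster among the cells of the 7 dpi library (red) and of the 28 dpi library (blue), in percent on a log axis, with exact 95% intervals of counting. Clusters are ordered by their ratio, with cluster 13, astrocytes and pericytes and fibroblasts higher at 28 dpi by the largest factors and monocytes lower by the largest factor.

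The next question was which differences in gene level were shared by all clusters. The level of a gene in a cluster of a library is given as its UMIs per 1000000 UMIs of all genes in those cells (CPM). A gene was compared where the 2 libraries together held at least 100 of its UMIs in the cluster, and 11 clusters had at least 50 cells at both times. Erythroid cells, pericytes and fibroblasts, and cluster 13 were below this number. In these 11 clusters, 341 genes could be compared in every one. None of them was 2-fold higher in all 11 (0.0%) and none was 2-fold lower in all 11 (0.0%). By the looser measure of a counting interval on 1 side of 0 in every cluster, 2 genes were higher (0.587%) and 13 were lower (3.81%) at 28 dpi. All clusters came from the same pair of libraries, so agreement between clusters is not independent evidence.

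The genes higher everywhere by this looser measure were Cst3 and B2m. Without doublets, 233 genes could be compared in every cluster, and by the same measure 0 were higher and 4 lower everywhere. Cst3 encodes cystatin C, a secreted inhibitor of cathepsins. Its level was 4267 CPM at 7 dpi and 11340 CPM at 28 dpi in MDMs, 18683 and 24752 CPM in microglia, 2681 and 5016 CPM in endothelial cells, and 10400 and 17450 CPM in astrocytes. The log2 ratio of Cst3 lay between 0.41 in microglia and T cells and 1.41 in MDMs, with a median of 0.75 over the 11 clusters. B2m encodes the light chain of MHC class I. It went from 1843 to 2635 CPM in MDMs and from 411 to 565 CPM in ependymal cells, and its log2 ratios lay between 0.26 in astrocytes and 0.69 in oligodendrocyte lineage cells. Over all cells of each library, Cst3 was 6978 and 14378 CPM, and B2m was 1808 and 2525 CPM.

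The 13 genes lower everywhere were Lgals1, Gpnmb, Ftl1, Ctsb, Actb and 8 ribosomal protein genes. Lgals1, which encodes the carbohydrate-binding protein galectin-1, came closest to a 2-fold difference in every cluster. It was at least 2-fold lower at 28 dpi in 10 of the 11. Its level went from 1104 CPM (1089 to 1118) to 288 CPM (279 to 297) in MDMs, from 167 to 60.8 CPM in microglia, from 953 to 367 CPM in monocytes, and from 1048 to 301 CPM in proliferating cells. The largest ratio was in neutrophils, where Lgals1 went from 271 to 52.4 CPM, a log2 ratio of -2.37 (-3.15 to -1.67). T cells were the exception, with 762 and 546 CPM and a log2 ratio of -0.48 (-0.71 to -0.25). In sham cords Lgals1 stood at 1.43 CPM in microglia and 143 CPM in MDMs, below both injury times, and at 911 CPM in T cells, above both.

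Gpnmb, a glycoprotein of lysosomes in lipid-laden phagocytes, was at least 2-fold lower in 9 of the 11 clusters. Its level was 7783 CPM at 7 dpi and 2591 CPM at 28 dpi in MDMs, a log2 ratio of -1.59 (-1.60 to -1.57). In clusters that are not known to express it, Gpnmb went from 1718 to 357 CPM in endothelial cells, from 2944 to 812 CPM in B cells, and from 976 to 203 CPM in ependymal cells. The 2 clusters short of 2-fold were microglia, with 224 and 159 CPM (log2 ratio -0.49), and neutrophils, with 698 and 405 CPM (-0.78). The log2 ratio of Gpnmb in oligodendrocyte lineage cells, -4.79 (-7.85 to -2.92), came from 173 and 2 UMIs, and a single cell held 70.5% of the UMIs at 7 dpi.

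Both genes are largely macrophage genes in these libraries. MDMs were 40.6% of the cells at 7 dpi and held 91.1% of all Gpnmb UMIs and 74.4% of all Lgals1 UMIs. Levels over all cells are therefore mostly levels of MDMs, and the part of macrophage RNA in the other clusters was not tested. Over all cells, Gpnmb was 4760 and 1450 CPM and Lgals1 was 827 and 213 CPM. When only cells with fewer than 3 UMIs of the 12 myeloid genes were counted, in the 7 clusters outside microglia, MDMs, monocytes and neutrophils, Lgals1 was lower at 28 dpi in 4 of 7 clusters with a median log2 ratio of -0.27, and Ftl1 in 3 of 7 with a median of 0.02. In the same cells Gpnmb was lower in all 5 clusters where it could be measured (median -0.71). Its interval lay below 0 in ependymal cells (-2.608 to -0.077). It included 0 in endothelial cells (-1.228 to 0.421), astrocytes (-2.862 to 0.242), T cells (-2.615 to 1.467) and B cells (-1.786 to 1.795). Ctsb was lower in 5 of 6 and Actb in 6 of 7, and each of the 8 ribosomal protein genes was lower in all 7. Of the genes higher everywhere, B2m was higher in all 7 and Cst3 in 5 of 7. The B2m interval included 0 in astrocytes, B cells, proliferating cells and oligodendrocyte lineage cells. Intervals of the other genes also included 0 in some of these clusters. Some of these values rest on few cells, such as 24 astrocytes at 7 dpi. The proliferating cells among them were 1 cell at 7 dpi and 8 at 28 dpi, so every ratio there rests on 1 cell.

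The remaining shared differences were mostly below 2-fold. Ftl1, which encodes the light chain of ferritin, had log2 ratios from -1.05 in B cells to -0.16 in microglia and was 18389 and 11128 CPM in MDMs. Ctsb, a lysosomal protease, ranged from -0.67 in ependymal cells to -0.12 in microglia. Actb ranged from -0.54 to -0.20. The ribosomal protein genes, among them Rpl31, Rps28, Rpl41, Rpl38, Rps16, Rpl6 and Rpl35a, had medians over clusters between -0.50 for Rpl31 and -0.26 for Rpl35a. The whole list of cytosolic ribosomal protein genes had both directions in some clusters and mostly 1 in others. In MDMs 44 of 81 were higher at 28 dpi (median 0.06, beside 0.01 over all genes). In proliferating cells 54 of 80 were higher (median 0.09, beside 0.03). In microglia 13 of 81 were higher (median -0.17, beside 0.11 over all genes), in endothelial cells 15 of 80 (-0.18, beside 0.01), in astrocytes 3 of 76 (-0.30, beside -0.07) and in oligodendrocyte lineage cells 1 of 76 (-0.51, beside -0.17).

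Among the 341 genes, 18 were at least 2-fold lower in 1 cluster or more, 7 in at least 2, 4 in at least 4 and 2 in at least 9. In the other direction, 8 genes were at least 2-fold higher in 1 cluster or more and none in more than 3. Restricting the question to the 9 clusters with at least 150 cells at both times admitted 601 genes and still none was 2-fold higher or lower in all 9. The interval was above 0 in every such cluster for 5 genes, B2m, Cd9, Cd81, Cst3 and Cst7, and below 0 for 23. The 23 included Wfdc17 (median log2 ratio -1.83), Apoc2 (-1.39), Plin2 (-1.37), which coats lipid droplets, and Ms4a7 (-1.33). Cst7, an inhibitor of lysosomal cathepsins, had a median log2 ratio of 1.44 with a range of 0.42 to 2.04.

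The PLX5622-fed pools at 7 and 28 dpi, from other mice, gave the same contrast on another diet. Of the 15 shared genes, the direction was the same in 5 in MDMs, 5 in microglia, 3 in endothelial cells, 10 in ependymal cells and 6 in all cells outside microglia and MDMs. These pools were small, with 504 and 940 cells. For none of these populations was the share of all genes with the same direction computed, so these counts have no value beside them. Cst3 was higher at 28 dpi in each of these populations, from 3503 to 7540 CPM in MDMs, a log2 ratio of 1.11 (1.06 to 1.15), and with an interval that included 0 in endothelial cells (0.13, -0.03 to 0.30). Lgals1 was lower in MDMs (-0.84), microglia (-1.37) and ependymal cells (-1.01) and higher in endothelial cells (1.02, 42.5 and 86.0 CPM). Gpnmb took opposite directions. It was lower in ependymal cells (-1.94) and outside microglia and MDMs (-1.55), and higher in microglia (1.37) and MDMs (0.17), where it was 8711 and 9815 CPM. All 8 ribosomal protein genes had ratios above 0 in MDMs, in microglia and outside both, opposite to the vehicle pools, such as Rpl35a with 0.35 in MDMs and 0.45 outside microglia and MDMs. Cst3 was the only 1 of the 15 with the same direction in all 5 populations of these pools as in the vehicle pools.

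**Figure D2:**
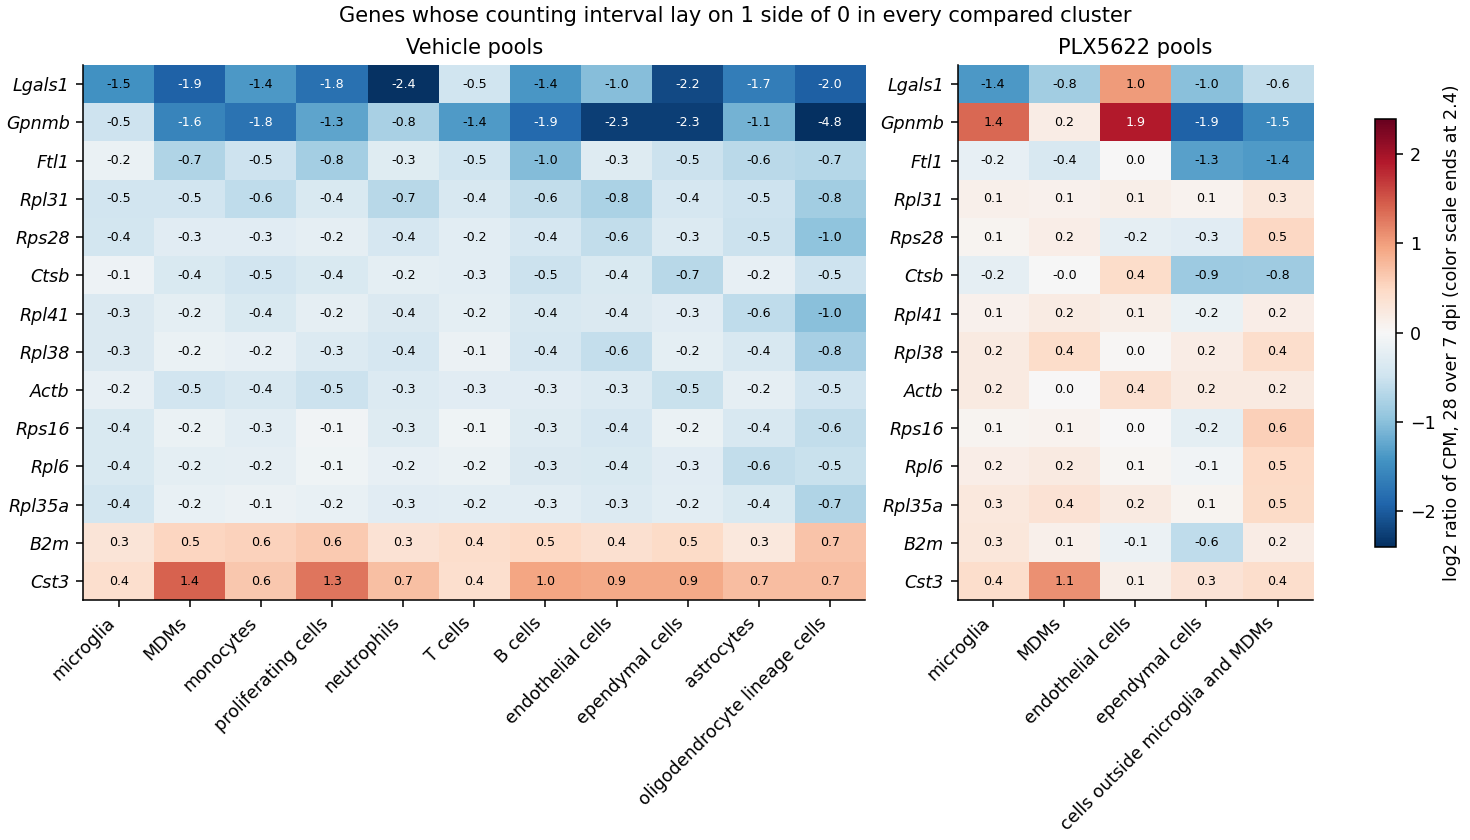
Log2 ratio of CPM at 28 over 7 dpi for 14 of the 15 genes whose counting interval lay on 1 side of 0 in every compared cluster, in the 11 clusters of the vehicle pools (left) and in 5 populations of the PLX5622 pools (right); blue is lower and red higher at 28 dpi. In the vehicle pools 12 genes are blue and 2 red throughout, and in the PLX5622 pools the ribosomal protein genes are pale red in 3 of the 5 populations.

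Within clusters the number of 2-fold differences varied. Over all clusters, 571 pairs of a gene and a cluster were at least 2-fold higher and 648 at least 2-fold lower at 28 dpi, of 36329 pairs compared. MDMs accounted for 301 of the former and 329 of the latter. The number of genes compared falls with the number of cells, so counts of different clusters are not on 1 scale. Genes with a ratio above 0 were 66.69% of those compared in microglia, 51.25% in MDMs, 44.7% in monocytes and 53.33% in proliferating cells. They were 51.58% in endothelial cells, 50.34% in T cells, 57.69% in B cells, 52.07% in ependymal cells and 44.02% in astrocytes. In neutrophils and oligodendrocyte lineage cells they were 40.55% and 34.55%.

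In MDMs, 301 of 9140 genes were at least 2-fold higher at 28 dpi (3.29%) and 329 at least 2-fold lower (3.6%). Among the lowest were genes of alternative activation, the wound-healing state of macrophages, and genes of other functions. Arg1, which breaks down arginine, went from 31.0 CPM (28.6 to 33.6) to 0.216 CPM (0.0446 to 0.632), that is from 617 to 3 UMIs, a log2 ratio of -7.16 (-9.45 to -5.61). F13a1, a clotting factor subunit, went from 175 to 3.39 CPM (log2 ratio -5.69, -6.14 to -5.28), Chil3, a chitinase-like protein, from 39.8 to 1.30 CPM (-4.94), and Cfp, the complement protein properdin, from 57.1 to 0.793 CPM (-6.17). The coagulation factor gene F7 went from 1270 to 3 UMIs and Scgb1a1 from 527 to 4 UMIs. At 7 dpi, F13a1 UMIs were in 969 and F7 UMIs in 560 of 3023 MDMs. After every cell was thinned to 1000 UMIs, F13a1 was seen in 11.4% (10.3 to 12.6) of MDMs at 7 dpi and 0.215% (0.0864 to 0.442) at 28 dpi, against 0.669% and 0.330% of endothelial cells, which should lack it. Without thinning the shares were 32.1% and 0.815% of MDMs at median depths of 5777 and 3875 UMIs, and 3.13% and 0.476% of endothelial cells at 2409 and 1342 UMIs.

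Of the list of alternative activation and tissue repair genes, 10 could be compared in MDMs. All 10 were lower at 28 dpi and 8 were at least 2-fold lower, with a median log2 ratio of -2.70 beside 0.01 over all genes. Besides Arg1, F13a1 and Chil3, Thbs1 (thrombospondin-1) had a log2 ratio of -3.76. Ms4a7, a marker of MDMs, went from 709 to 312 CPM (-1.18). Of 16 genes for galectins, S100 proteins and their partners, 7 were at least 2-fold lower and none higher, with a median of -0.88. S100a4 went from 55.0 to 2.60 CPM (-4.40), S100a6 from 150 to 10.7 CPM (-3.82) and Anxa1, an annexin that restrains inflammation, had a log2 ratio of -3.64. Ahnak (-4.86) and Napsa (-4.99) were among the 5 lowest of the genes with at least 10 UMIs at each time.

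Genes higher at 28 dpi in MDMs included some matrix genes. Postn, which encodes the matrix protein periostin, went from 3.57 CPM (2.79 to 4.51) to 74.0 CPM (69.5 to 78.7), a log2 ratio of 4.37 (4.02 to 4.74). It was found in 457 of 3313 MDMs at 28 dpi, and no cell held more than 1.46% of its UMIs. Mmp12, the macrophage elastase, went from 32.4 to 325 CPM (3.33). After thinning, Mmp12 was seen in 2.03% (1.56 to 2.60) of MDMs at 7 dpi and 13.5% (12.4 to 14.8) at 28 dpi, beside 0.334% of endothelial cells at 7 dpi and 0 of 303 at 28 dpi, for which the exact upper limit is 1.21%. Without thinning these shares were 5.69% and 23.8% of MDMs, and 1.42% and 1.43% of endothelial cells. Lox, which cross-links collagen, had a log2 ratio of 2.98, and Mmp14, which activates other matrix proteases, one of -1.13. Klrb1b (4.21), St8sia6 (4.00), Tmem163 (3.61) and Pvrl3 (3.50) completed the 5 highest of the genes with at least 10 UMIs at each time, and Trpc4 went from 8 to 107 UMIs. Postn stood at 24.0 CPM and St8sia6 at 19.7 CPM in sham MDMs, between the 2 injury times.

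The list of disease-associated and lipid handling genes split in MDMs. Of 27 genes, 9 were at least 2-fold higher and 5 at least 2-fold lower, with a median of 0.16. Cst7 went from 255 to 1047 CPM (2.04) and Itgax, the integrin CD11c, from 60.0 to 228 CPM (1.93). The fatty acid transporter Cd36 went from 127 to 13.6 CPM (-3.22), Plin2 from 837 to 248 CPM (-1.76) and the fatty acid binding protein gene Fabp5 from 6282 to 2417 CPM (-1.38). Apoe, the main carrier of exported cholesterol in the nervous system, was 95581 and 106535 CPM (0.16), and Spp1 (osteopontin) 20649 and 15027 CPM (-0.46). Lpl, which splits triglycerides, was 724 and 1655 CPM (1.19), and Apoc1 was 375 and 1035 CPM (1.47).

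Genes that mark microglia were also higher in the MDM cluster at 28 dpi. Of 15 homeostatic microglia genes, 14 were higher, beside 51.25% of all genes, and 5 were at least 2-fold higher, with a median of 0.46. Siglech went from 21.5 to 76.8 CPM (1.83), Sall1 had a log2 ratio of 1.30, Gpr34 of 1.18 and Tgfbr1 of 1.07, while Tmem119 was 97.5 and 81.8 CPM (-0.25). The summed level of the 6 microglia markers in MDMs was 1136 and 1673 CPM, against 4617 and 4857 CPM in microglia, and the part of misassigned cells or doublets in this was not tested. The 6 MDM markers summed to 37808 and 21776 CPM in MDMs, with no marker at 0.

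Chemokines and growth factors followed no common direction in MDMs. Of 14 chemokine genes, 4 were at least 2-fold higher and 3 lower. Ccl6 (1.79) and Ccl3 (1.64) were higher, and Ccl7 (-3.82) and Pf4, platelet factor 4 (-3.06), were lower. Of 10 genes of TGF-beta and IGF signaling, 4 were at least 2-fold higher, among them Igfbp5 (2.34) and Smad7 (1.37), and 2 lower, among them Tgfbi (-1.20). Of 41 genes of oxidative phosphorylation, 38 were lower and none by 2-fold, while 51.25% of all genes were higher. The median of this list was -0.30, beside 0.01 over all genes.

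**Figure D3:**
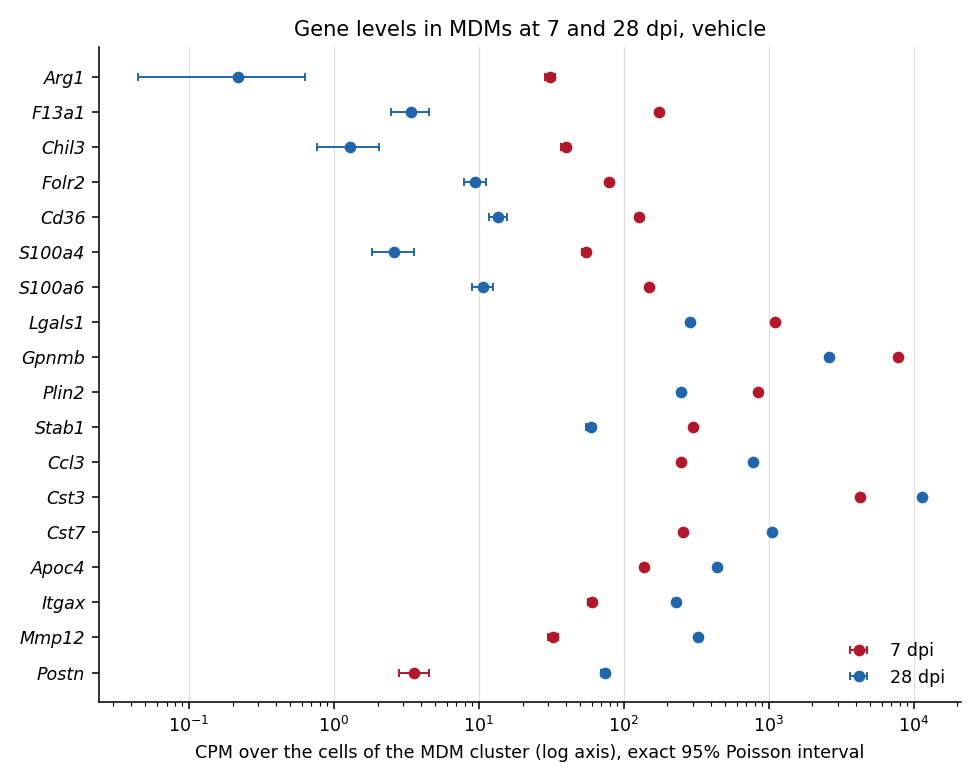
Levels of 18 named genes in MDMs at 7 dpi (red) and 28 dpi (blue), in CPM on a log axis, with exact 95% Poisson intervals that cover counting error only and are mostly smaller than the points. Arg1, F13a1 and Chil3 are lower at 28 dpi by the largest factors and Mmp12 and Postn higher.

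MDMs of the PLX5622 pools, 100 cells at 7 dpi and 161 at 28 dpi, gave values for these genes in mice the ranking did not use. Of the 14 genes named above by rank in MDMs, 10 had at least 10 UMIs there, and all 10 had the same direction and at least a 2-fold difference. These 10 were mostly genes lower at 28 dpi. Of the genes higher at 28 dpi, Klrb1b, Tmem163, Pvrl3 and Trpc4 had fewer than 10 UMIs there. The share of all MDM genes with the same direction in these pools was not computed, so there is no value to set this count against. F13a1 was 284 and 19.4 CPM (-3.87), Chil3 119 and 2.33 CPM (-5.68), Cfp 44.1 and 1.55 CPM (-4.83), Arg1 43.5 and 3.89 CPM (-3.49) and F7 104 and 8.55 CPM (-3.60). St8sia6 went from 1 to 11 UMIs and Postn from 5 to 10 UMIs, the latter with an interval that included 0 (-0.24 to 3.34).

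In microglia, 51 of 7740 genes were at least 2-fold higher at 28 dpi (0.659%) and 25 at least 2-fold lower (0.323%). The split depended on scaling. The median over all genes was 0.11, TMM and DESeq2 factors shifted it by -0.11, and the counts were then 31 higher and 35 lower with TMM and 31 and 36 with DESeq2. The matrix genes Mmp12 and Postn were among the 5 highest here too. Mmp12 went from 1.93 to 19.0 CPM (3.31, 2.49 to 4.25), Postn from 5.33 to 31.9 CPM (2.58) and the VEGF receptor gene Flt1 from 4.30 to 29.4 CPM (2.77). In MDMs Flt1 went from 9.76 to 87.1 CPM. Flt1 is also an endothelial gene, and the 6 endothelial markers, Flt1 included, summed to 33.9 and 50.8 CPM in microglia and to 23.4 and 97.5 CPM in MDMs, so most of the later sum was Flt1 itself. Mmp12 and Postn were also higher in MDMs at 28 dpi, and the part of macrophage RNA or misassigned cells in the microglia values was not tested. After thinning, Mmp12 was seen in 0.151% (0.0312 to 0.441) of microglia at 7 dpi and 1.63% (1.21 to 2.14) at 28 dpi. Of thinned endothelial cells, 0.334% at 7 dpi and 0 of 303 at 28 dpi held it. Without thinning the shares of microglia were 0.279% and 2.77%, at median depths of 2902.5 and 1686 UMIs, with 1.42% and 1.43% of endothelial cells at their depths.

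Among lower genes, Saa3, an acute phase protein, went from 40.9 to 2.77 CPM in microglia (-3.88, -4.58 to -3.25), Cd5l, a secreted macrophage protein, from 26.8 to 2.02 CPM (-3.73) and the folate receptor gene Folr2 from 93.3 to 9.08 CPM (-3.36). Clec12a (-2.36), Acp5 (-2.17) and Cd93, from 100 to 6 UMIs, were lower too. Folr2 UMIs were in 397 of 2154 microglia at 7 dpi. Of the genes named by rank in microglia, 10 had fewer than 10 UMIs in the microglia of the PLX5622 pools. Only Folr2 had more, with a log2 ratio of -2.49 (-5.72 to -0.26). Of the 4 alternative activation genes compared in microglia, Folr2, Stab1 (-2.06) and Ms4a7 (-1.14) were at least 2-fold lower and Il4ra was at -0.08. Folr2, Stab1, Pf4 and Ms4a7 are known from perivascular and infiltrating macrophages. The 6 MDM markers summed to 4286 and 4252 CPM in microglia, most of it Spp1 with 3290 and 3247 CPM, while the markers Ms4a7 (169 and 76.7 CPM) and Gpnmb (224 and 159 CPM) were lower at 28 dpi. The part of macrophage RNA in these values was not tested.

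The identity genes of microglia differed little between the times. Of 15 homeostatic genes, 9 were higher, beside 66.69% of all genes, and none differed by 2-fold. Their median was 0.20 beside 0.11 over all genes. P2ry12, a purinergic receptor of resting microglia, was 351 CPM (337 to 365) at 7 dpi and 510 CPM (494 to 526) at 28 dpi, a log2 ratio of 0.54, and 2410 CPM in sham. Siglech was 300.4 and 473 CPM (0.66), Tmem119 391 and 450 CPM (0.20), and Fcrls 1719 and 1109 CPM (-0.63). Of 27 disease-associated and lipid handling genes, 1 was at least 2-fold higher, Itgax with 42.1 and 104 CPM (1.31), and none lower. Apoe was 80171 and 78690 CPM (-0.03) and Spp1 3290 and 3247 CPM (-0.02), against 9039 and 31.0 CPM in sham microglia. Both stayed far above sham at 28 dpi.

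Some chemokine genes were among the higher ones. Of 14 chemokine genes, 4 were at least 2-fold higher, among them Ccl5 with 51.2 and 146 CPM (1.51) and Ccl6 with 290 and 664 CPM (1.19), and Pf4 was lower (-2.04). Cd74, the invariant chain of MHC class II, went from 66.8 to 189 CPM (1.50) and was the 1 of 6 MHC class II genes past 2-fold. None of 9 MHC class I genes was. H2-Eb1, an MHC class II chain, was at -0.10 and H2-Aa at 0.40. Rnase6 (1.80) and Tnfsf8 (1.80) were 2 of the 5 highest genes. Of 18 immediate early and stress genes, 12 were lower, in a cluster where 66.69% of all genes were higher. Fosb, with 22.7 and 6.94 CPM (-1.71), was the 1 that passed 2-fold.

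**Figure D4:**
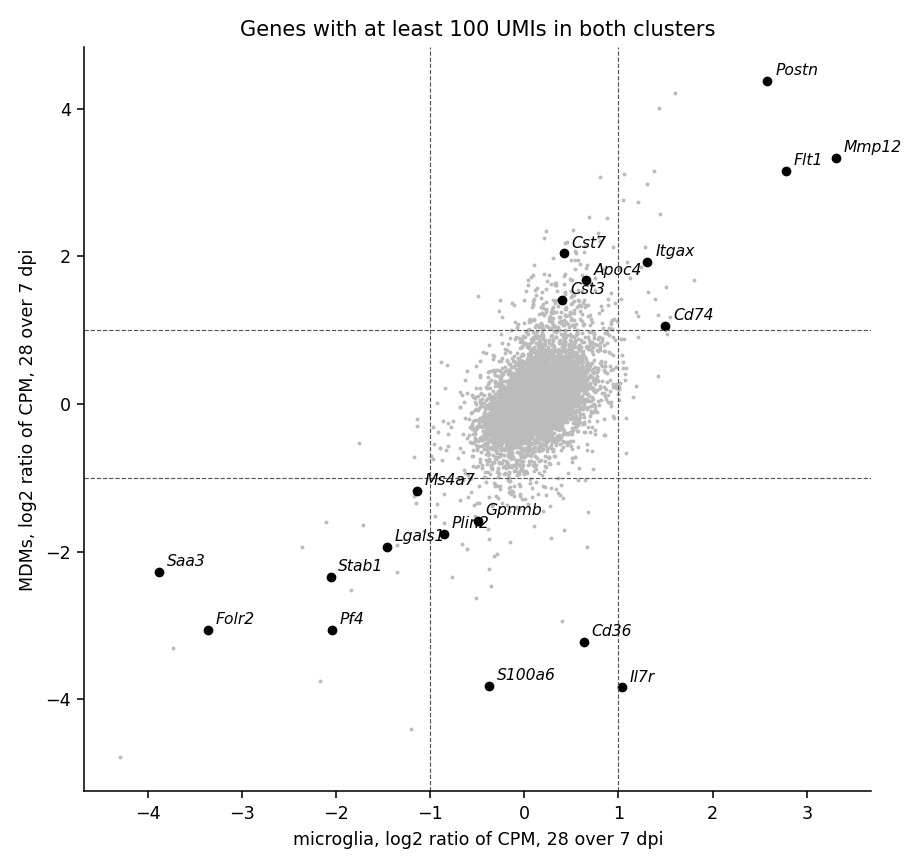
Log2 ratio of CPM at 28 over 7 dpi in microglia (x axis) and MDMs (y axis) for 7714 genes with at least 100 UMIs in both clusters, with 2-fold marked by dashed lines and named genes in black. Postn, Mmp12 and Flt1 lie far up and right, Folr2, Saa3, Stab1 and Pf4 far down and left, and Cd36, S100a6 and Il7r lie low for MDMs and near or right of 0 for microglia.

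In monocytes, 58 of 3497 genes were at least 2-fold higher (1.66%) and 68 at least 2-fold lower (1.94%). The alternative activation list gave other counts here than in MDMs. Of 13 genes, 5 were at least 2-fold higher and 1 lower. Cd163, the scavenger receptor for hemoglobin, went from 19.7 to 130 CPM (2.72), Lyve1 from 44.1 to 242 CPM (2.45) and the mannose receptor gene Mrc1 from 108 to 240 CPM (1.15), which are genes of resident border macrophages. F13a1 was 205 and 414 CPM (1.01) in monocytes, opposite to its direction in MDMs. Arg1 went from 110 UMIs to 0, which at a floor of 3 UMIs for the library is a log2 ratio of at most -3.42. With 602 and 284 cells, fewer cells of a subset and less RNA per cell cannot be told apart here.

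Of 17 chemokine genes in monocytes, 7 were at least 2-fold higher and 3 lower, with a median of 0.84. Ccl8 went from 27.1 to 201 CPM (2.89), Ccl5 from 39.5 to 267 CPM (2.76), Cxcl13, which attracts B cells, from 211 to 745 CPM (1.82) and Pf4 from 511 to 1640 CPM (1.68). Ccl2, which recruits monocytes, went from 137 to 61.2 CPM (-1.17), and Cxcl10 was at -1.38. Ccl8 was carried by 16 of 284 cells at 28 dpi, 1 of which held 29.7% of its UMIs. Ccl5 was carried by 24 of the 284 cells, 1 of which held 25.9% of its UMIs. Of 15 galectin and S100 genes, 5 were at least 2-fold lower, with a median of -0.57, among them Lgals3 (-1.25) and S100a11 (-1.24). All 11 glycolysis genes were lower, Pgam1 by 2-fold (-1.05), in a cluster where 44.7% of all genes were higher. The median of these 11 was -0.68, beside -0.05 over all genes. The lowest genes were Acp5 (-2.36), Tgm2 (-2.29), Clec4n (-2.09), Apoc2 (-1.97) and the cathepsin inhibitor gene Cstb (-1.79), with Emp1 at 156 and 9 UMIs and Slc37a2 at 127 and 8 UMIs. The 7 MHC class II genes lay between -0.47 and 0.19. The 6 MDM markers summed to 6749 and 3406 CPM in monocytes, and their part in these values was not tested.

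Some monocyte values came from single cells. Gng11 (5.01) had 58.4% of its 28 dpi UMIs in 1 cell, Ctla2a (2.73) had 50.2%, Marco (2.73) had 98.0%, and Mcpt2, at 161 UMIs at 7 dpi and 0 at 28 dpi, had 99.4% in 1 cell at 7 dpi.

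In proliferating cells, 40 of 4356 genes were at least 2-fold higher (0.918%) and 78 at least 2-fold lower (1.79%). None of 20 cell cycle genes on the list differed by 2-fold, with a median of 0.10, and Mki67 was 557 and 622 CPM (0.16). All 14 homeostatic microglia genes compared were higher at 28 dpi, beside 53.33% of all genes. Of these 14, 5 were at least 2-fold higher, and the median was 0.58. Siglech went from 44.8 to 254 CPM (2.50, 2.18 to 2.83) and P2ry12 from 84.7 to 228 CPM (1.43). Lag3 (2.34), the histone gene Hist1h2ao (2.26), Itgax (2.17) and Ank (1.77) were also among the 5 highest.

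Genes of infiltrating and perivascular macrophages were lower in proliferating cells. Folr2 went from 96.6 to 11.5 CPM (-3.07), Stab1 had a log2 ratio of -2.73, Pf4 went from 303 to 40.3 CPM (-2.91) and Cd5l from 335 to 3 UMIs. Cd93 (-3.09), Pltp (-2.88) and Acp5 (-2.79) were the others of the 5 lowest, and Metrnl went from 112 to 8 UMIs. Of 27 disease-associated and lipid handling genes, 4 were at least 2-fold higher and 7 at least 2-fold lower, Plin2 with 707 and 160 CPM (-2.15). MHC class II genes were lower, H2-Eb1 with 142 and 37.0 CPM (-1.94) and H2-Aa with 187 and 52.6 CPM (-1.83). The sums of marker levels moved with these genes. The 6 microglia markers were 2120 and 2861 CPM and the 6 MDM markers 17676 and 7971 CPM. A different mix of dividing cells and a different state of the same cells cannot be told apart from these sums.

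In neutrophils, 5 of 873 genes were at least 2-fold higher (0.573%) and 19 at least 2-fold lower (2.18%). Granule genes were mostly within 2-fold, with a median of -0.02 over 16, and the alarmin genes S100a8 (0.08) and S100a9 (0.06) differed little. The cytokine gene Il1b went from 444 to 190 CPM (-1.22) and the chemokine gene Cxcl2 from 249 to 93.7 CPM (-1.41). Elane, the elastase of immature neutrophils, went from 306 to 74.4 CPM (-2.04), but came from 4 of 223 cells at 7 dpi. Lgals3bp (1.73), Cst7 (1.53) and Cd81 (1.13) were the highest and Lgals1 and S100a4 (-1.91) among the lowest, genes that are abundant in macrophages. The 6 MDM markers summed to 4870 and 3645 CPM in neutrophils, and their part in these values was not tested.

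In T cells, 6 of 1182 genes were at least 2-fold higher (0.508%) and 14 at least 2-fold lower (1.18%). Cxcr6, a chemokine receptor of T cells that stay in tissue, went from 103 CPM (72.7 to 141) to 298 CPM (257 to 344), a log2 ratio of 1.54 (1.03 to 2.08). Of 5 genes on the T cell state list, 4 were higher, beside 50.34% of all genes. Among these 4 were Cd8a with 108 and 210 CPM (0.96) and the T cell marker Cd3e (0.61). The 3 T cell markers together, Cd3e included, were 965 and 1421 CPM (0.56). A different mix of cells in this cluster and a different state of the same cells cannot be told apart here. Gzma, a granzyme of killer cells, went from 830 to 378 CPM (-1.13), while Nkg7 (0.40) and Cd8b1 (0.77) were higher and Ccl5 was 3183 and 3485 CPM (0.13). Erdr1 (1.18) and Rps27 (1.13) were among the 3 highest. The 3 lowest were Ms4a7 (-1.83), Wfdc17 (-1.74) and Fos (-1.64), of which Ms4a7 and Wfdc17 are macrophage genes. In T cells the summed MDM markers were 6490 and 5476 CPM and the part of macrophage RNA in these values was not tested.

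In B cells, 37 of 1515 genes were at least 2-fold higher (2.44%) and 19 at least 2-fold lower (1.25%). Of 9 B and plasma cell genes, 7 were higher, with a median of 0.58 beside 0.07 over all genes. Vpreb3, a gene of developing and mature B cells, went from 83.1 to 758 CPM (3.19, 2.78 to 3.62) and was found in 159 of 329 cells at 28 dpi. Cd79a was 1002 and 1640 CPM (0.71) and Ms4a1 (CD20) 589 and 914 CPM (0.63). Dusp2 (2.46) and Cd72 (1.78), a B cell receptor regulator, were also higher. All of these were higher still in sham B cells, of which there were 23, with Vpreb3 at 1228 CPM. Igj, the joining chain of secreted antibodies, went from 2 to 915 UMIs, but came from 3 cells, 1 of which held 64.0%. Wfdc17 (-2.97), Gpnmb and Hba-a2 (-1.53), a hemoglobin gene, were the lowest. The 6 MDM markers summed to 12521 and 8775 CPM in B cells, and the part of macrophage RNA was not tested.

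In endothelial cells, 31 of 3831 genes were at least 2-fold higher (0.809%) and 39 at least 2-fold lower (1.02%). Of 13 barrier genes, 1 differed by 2-fold. Slc16a1, a lactate transporter, went from 309 to 145 CPM (-1.09, -1.38 to -0.80), and the median was -0.11. The tight junction gene Cldn5 was 4390 and 3722 CPM (-0.24). Of 9 genes of vessel growth none differed by 2-fold and 8 were lower, while 51.58% of all genes were higher. The median of these 9 was -0.54, beside 0.01 over all genes. Among the lower ones were the VEGF receptor gene Kdr (-0.61) and the basement membrane collagen gene Col4a2 (-0.76). Flt1 was 1066 and 1361 CPM (0.35).

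The genes with the largest differences in endothelial cells were those of other cells. Cox4i2 went from 18.3 to 89.0 CPM (2.28) and Vtn from 413 to 1233 CPM (1.58), both known from pericytes, and the 6 pericyte markers summed to 848 and 2207 CPM. Vtn was found in 95 of 420 cells at 28 dpi. Of the 6 genes named by rank in endothelial cells that had at least 10 UMIs in the PLX5622 pools, 3 had the same direction there, Cox4i2 (1.64), Vtn (2.19) and Apoc4 (1.28), and 3 the opposite, Cst7 (-0.72), S100a8 (3.45) and Gpnmb (1.89). Apoc1 (1.84), Cst7 (1.68) and Apoc4 (1.64) are macrophage genes. S100a8 (-2.70), S100a9 (-2.38), Camp (-2.41), Retnlg (191 and 8 UMIs) and Ngp (138 and 4 UMIs) are neutrophil genes, and Pla2g7 (-2.49) encodes a lipase of phagocytes. The 6 neutrophil markers summed to 2259 and 421 CPM. A single cell held 38.4% of the Ngp UMIs. All 6 neutrophil granule genes compared in endothelial cells were at least 2-fold lower. Among cells with few myeloid UMIs, the direction of Apoc1 (-0.10), S100a8 (0.37), S100a9 (0.37) and Camp (1.09) was the opposite.

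In astrocytes, with 69 and 245 cells, 22 of 761 genes were at least 2-fold higher (2.89%) and 13 at least 2-fold lower (1.71%). Gfap, the intermediate filament of reactive astrocytes, went from 1578 CPM (1402 to 1771) to 336 CPM (282 to 396), a log2 ratio of -2.23 (-2.54 to -1.94), and was 119 CPM in sham. Gfap UMIs were in 40 of 69 cells at 7 dpi, 1 of which held 19.3% of them. Vim, another filament gene of reactive astrocytes, was 267 and 220 CPM (-0.28). Of 15 astrocyte homeostasis genes none differed by 2-fold. The sodium pump subunit gene Atp1b2 (0.67) and the gap junction genes Gja1 (0.67) and Gjb6 (0.97) were higher, and the glutamate transporter genes Slc1a2 (-0.52) and Slc1a3 (-0.60) were lower. F3, which encodes tissue factor, went from 98.0 to 425 CPM (2.12) and Dclk1 from 158 to 529 CPM (1.74), both towards the sham levels of 1424 and 1090 CPM. Msmo1, an enzyme of cholesterol synthesis, went from 87.1 to 229 CPM.

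Ccl6 (2.78) and Wfdc17 (-1.91) in astrocytes are macrophage genes, and the summed myeloid genes were 23455 and 22224 CPM. S100a6 (-2.72) had 75.2% of its 7 dpi UMIs in 1 cell, and without doublets its log2 ratio was 0.077.

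In ependymal cells, 12 of 2777 genes were at least 2-fold higher (0.432%) and 17 at least 2-fold lower (0.612%). The genes of motile cilia, which move cerebrospinal fluid, were steady. None of 16 differed by 2-fold, with a median of 0.00 and a range of -0.42 for Dnah11 to 0.37 for Tmem212. Foxj1, the regulator of these cilia, was 492 and 555 CPM (0.17). The small heat shock protein gene Cryab went from 112 to 322 CPM (1.52, 1.15 to 1.91) and was 254 CPM in sham. The other extremes were macrophage genes, Cst7 (1.83) and Ly86 (1.70) higher and Wfdc17 (-3.08), Ms4a7 (-2.57) and Gpnmb (-2.27) lower. The MDM markers summed to 7584 and 2858 CPM in this cluster, with Arg1 at 0 at 28 dpi. Of the genes named by rank here, 4 had at least 10 UMIs in the PLX5622 pools, and 3 of those had the same direction. Wfdc17 had the opposite direction there (1.50, 0.39 to 2.69).

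In oligodendrocyte lineage cells, with 107 and 55 cells, 8 of 657 genes were at least 2-fold higher (1.22%) and 27 at least 2-fold lower (4.11%). All 3 myelin genes compared were at least 2-fold lower. Cnp, an enzyme of myelin-forming cells, went from 628 CPM (546 to 720.4) to 190.3 CPM (116 to 294), a log2 ratio of -1.72 (-2.46 to -1.06), and Cldn11, the claudin of myelin, went from 119 to 5 UMIs. The lineage factor gene Olig1 was at 0.18. Serpina3n, a serine protease inhibitor induced by injury, went from 231 to 8 UMIs, and 1 cell held 23.4% of those at 7 dpi. S100a6 was at -2.84. Meg3 (3.98), Nap1l5 (2.05) and Ahi1 (1.64), genes known from neurons, were the 3 highest, and 1 cell held 25.3% of the Meg3 UMIs at 28 dpi. S100a9 (-3.97) and S100a8 (-3.84) had 84.7% and 82.3% of their 7 dpi UMIs in 1 cell, and the 6 neutrophil markers summed to 3722 and 238 CPM. The median over all genes was -0.17 in this cluster, and TMM factors shifted it by 0.19.

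Across clusters, few lists had 1 direction throughout. The MHC class I list had a median above 0 in all 11 clusters, from 0.01 in neutrophils to 0.53 in oligodendrocyte lineage cells, where 2 genes could be compared. In all clusters it held 1 member past 2-fold, H2-T23 in T cells (1.08). Oxidative phosphorylation had a median below 0 in all 11, from -0.34 in monocytes to -0.02 in endothelial cells, with 1 member past 2-fold in neutrophils. Alternative activation genes had medians of -2.70 in MDMs, -1.71 in proliferating cells and -1.60 in microglia and 0.17 in monocytes. The galectin and S100 list had a median below 0 in 10 clusters and 0.14 in T cells. Interferon-stimulated genes had medians of 0.04 in microglia and 0.09 in MDMs, with none of 16 past 2-fold in either.

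**Figure D5:**
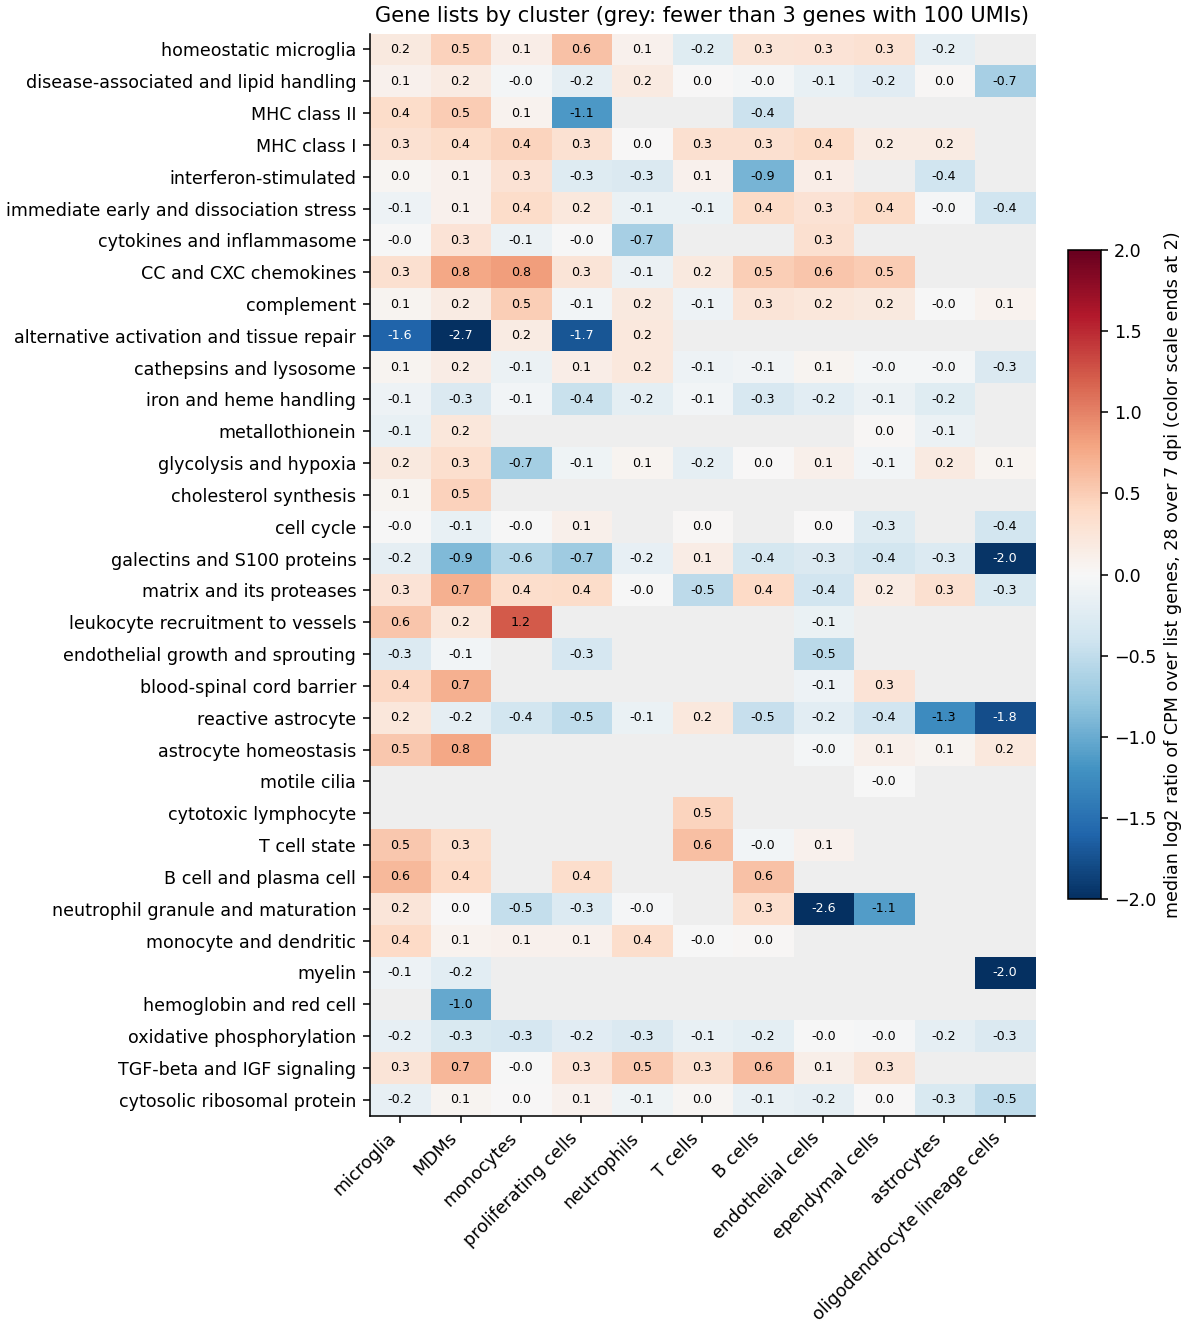
Median log2 ratio of CPM at 28 over 7 dpi for each gene list (rows) in each compared cluster (columns), over list genes with at least 100 UMIs; grey marks fewer than 3 such genes, and the color scale ends at 2. Alternative activation genes are dark blue in microglia, MDMs and proliferating cells, and most other medians lie within 1 log2 unit of 0.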

How the data were processed

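Spinal cord cells of vehicle-fed mice at 7 and 28 dpi were profiled with the 10x 3' v3 chemistry. The authors mapped reads to mm10 (GRCm38) with Cell Ranger and used Seurat for filters and clusters. They deposited raw UMI counts per gene and cell, in 1 table of 21016 cells and 16003 genes with a cluster number per cell. The study states that cells with more than 3000 genes were removed, but the table holds 716 of them, 289 in the 7 dpi and 51 in the 28 dpi vehicle library, and none was removed here. The matrices per sample held 7439 and 9848 barcodes, of which 7439 and 9846 were in the joint matrix. No gene of the mitochondrial genome was present, so that sign of damaged cells could not be checked. UMIs per library were 35694246 at 7 dpi and 27768968 at 28 dpi.

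UMIs were summed per gene, cluster and library and divided by the cluster total (CPM). Intervals are 95% and exact (Poisson for CPM, Clopper-Pearson for shares, conditional binomial for log2 ratios), and cover counting error only. A ratio was called past 2-fold among genes with at least 100 UMIs over both libraries. A count of 0 was set to a floor of 3 UMIs per library for ratios. For shares of cells with a UMI, cells were thinned to 1000 UMIs and shallower cells left out. The PLX5622 libraries at both times and the sham vehicle library served as side values.

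The genes named are, per cluster, the 5 highest and 5 lowest ratios among genes with at least 10 UMIs in each library (3 and 3 below 200 cells at either time), up to 3 per direction with at least 100 UMIs at 1 time and fewer than 10 at the other, the shared genes, up to 4 per gene list with the largest ratios, members the study's text names, and cell type markers. A few others were named after their values were seen. Of 34 gene lists, those without a sentence in the text stand in the plot of list medians. The cells, clusters and lists were chosen with earlier results of these data known.

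Alternatives were edgeR TMM factors, DESeq2 size factors, each cell weighted alike, thinned cells, totals without ribosomal protein genes, cells with at least 500 genes, cells without doublets, cells with few myeloid UMIs, minimums of 10 and 400 UMIs, and clusters of at least 150 cells. Scrublet called 420 and 1 cells at its own threshold, so the 443 and 776 cells with the highest scores, the number expected at 0.8% per 1000 cells, were left out instead. Steps were tested on simulated counts. Scaling factors came from DESeq2 1.42.0 and edgeR 4.0.16. All else ran in Python 3.11.15 with scanpy 1.11.5, scipy 1.17.1, numpy 2.4.6 and matplotlib 3.10.9.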

Additional observations from a re-analysis of the deposited data

Results flagged for a closer look

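Il7r, the receptor chain for interleukin-7, went opposite ways in the 2 largest clusters. In microglia it was 4.74 CPM at 7 dpi and 9.71 CPM at 28 dpi (32 and 77 UMIs, log2 ratio 1.03, or 1.035 before rounding), and in MDMs 56.9 and 3.97 CPM (1130 and 55 UMIs, log2 ratio -3.84). With 1 library per time the difference was not tested. Il7r was singled out after its values were seen.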

How the results depend on the processing

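With 1 library per time, no difference has a replicate check. No paired analysis was possible because each time had 1 library. No gene was 2-fold higher or lower in every cluster under any alternative that left genes to compare. Of the main values recomputed, 87 of 118 moved by less than 1.5 times. The exceptions follow, as genes higher and lower. In microglia, genes 2-fold higher were 31 with TMM, 31 with DESeq2 and 82 with each cell weighted alike. In thinned cells they were 33 and 9 in microglia, 129 and 150 in MDMs and 225 and 233 over all clusters. With a minimum of 10 UMIs they were 450 and 185, 803 and 788, and 6813 and 5525. With a minimum of 400 UMIs they were 7 and 9, 143 and 180, and 189 and 268. These settings change how many genes are compared. Genes with an interval above or below 0 in every cluster were 1 and 1 of 100 in thinned cells, 0 and 4 of 233 without doublets, 0 and 0 of 20 in cells with few myeloid UMIs, and 5 and 23 of 601 in clusters of at least 150 cells. They were 1 above with a minimum of 400 UMIs and 6 below without ribosomal protein genes in the total. Of 889 values of named genes, 11 changed direction. In cells with few myeloid UMIs these were Apoc1 (-0.10), S100a8 (0.37), S100a9 (0.37) and Camp (1.09) in endothelial cells, S100a6 (0.23) in astrocytes, and S100a9 (0.59) and S100a8 (0.025) in oligodendrocyte lineage cells. Without doublets they were S100a6 in astrocytes (0.077) and S100a9 in oligodendrocyte lineage cells (0.16). Ctla2a in monocytes was -2.53 in cells with at least 500 genes, and Marco -2.51 without the cell that held most of its UMIs, an alternative chosen after seeing the data. The causes were not tested.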
